A study of Mus musculus with 8 samples.

Results

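Sesn1, Sesn2, Trp53inp1, Zmat3, Rrm2b, Polk, Xpc, Ercc5, Ddb2 and Gdf15 are described here as targets of the transcription factor p53 that act in stress metabolism and DNA repair. They were chosen by symbol, as 10 of the 22564 genes of the deposited expression table, and each symbol had 1 row. Skin of male C57Bl/6 mice aged 4 weeks was compared between areas exposed to 1 dose of 35 Gy, given as 6 MeV electrons at 750 cGy per minute, and areas that were not irradiated. Irradiated skin was taken after 24 h, and each group had 4 RNA-seq libraries. Because the groups are different areas of skin, a difference between areas and an effect of irradiation cannot be told apart. No allele, transgene or drug is named for either group. The labels do not say whether each library came from its own mouse, so p-values measure the spread between libraries, which may be partly technical.

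After DNA damage p53 is stabilised and switches on genes that halt the cell cycle, kill the cell, limit oxidation and growth, or repair DNA. The sestrins encoded by Sesn1 and Sesn2 restrain the growth kinase complex mTORC1 and protect against oxidants, Trp53inp1 encodes a stress protein that promotes autophagy, and Zmat3 encodes a zinc finger protein that binds RNA. Rrm2b encodes the p53-inducible small subunit of ribonucleotide reductase, Polk a polymerase that copies damaged templates, Xpc and Ddb2 sensors of bulky DNA lesions, Ercc5 an endonuclease of nucleotide excision repair, and Gdf15 a secreted stress hormone. Induction of Ddb2 by p53 is known from human cells.

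RefSeq start sites on GRCm38.p6 were matched for Ercc5, Gdf15, Polk, Sesn1 and Sesn2, with 8 windows of 250 bases before a start. These windows are shown because p53 binds paired copies of a degenerate 10-base half-site, so that a reader can see which letters lie before the starts of genes whose RNA is compared below. The p53 consensus half-site reads the same on both strands, and it occurred in 2 of the 8 windows and in 7.13% of all 32851 windows. A pair of half-sites with 0 to 13 bases between them occurred in 0 of the 8 and in 0.0639% of all windows. The core CATG, which can lie inside the half-site and also reads the same on both strands, occurred in 3 of the 8 and in 53.9% of all. Capitals mark the half-site in Sesn1, where it begins at base -173 from the start, and in Polk, where it begins at base -231; in Sesn2 and Gdf15, which had no half-site, capitals mark CATG. The Ercc5 window held neither. A match describes letters, not binding.
Sesn1, downstream start, chr10:41887189-41887438, plus strand: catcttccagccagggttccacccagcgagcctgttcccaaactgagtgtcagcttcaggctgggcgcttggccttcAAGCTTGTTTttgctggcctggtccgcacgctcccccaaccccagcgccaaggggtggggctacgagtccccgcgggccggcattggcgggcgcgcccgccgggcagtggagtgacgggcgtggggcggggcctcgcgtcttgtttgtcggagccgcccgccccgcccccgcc
Polk, downstream start, chr13:96519188-96519437, minus strand: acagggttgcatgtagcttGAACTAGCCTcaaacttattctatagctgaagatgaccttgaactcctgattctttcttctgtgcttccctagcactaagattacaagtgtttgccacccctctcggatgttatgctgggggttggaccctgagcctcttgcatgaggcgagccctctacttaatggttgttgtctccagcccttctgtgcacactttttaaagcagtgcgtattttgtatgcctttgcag
Sesn2, chr4:132510457-132510706, minus strand: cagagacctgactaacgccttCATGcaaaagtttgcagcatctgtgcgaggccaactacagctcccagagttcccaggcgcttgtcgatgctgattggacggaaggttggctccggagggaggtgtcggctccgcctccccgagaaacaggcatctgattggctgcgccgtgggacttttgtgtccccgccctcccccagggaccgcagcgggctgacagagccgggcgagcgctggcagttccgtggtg
Gdf15, upstream start, chr8:70632457-70632706, minus strand: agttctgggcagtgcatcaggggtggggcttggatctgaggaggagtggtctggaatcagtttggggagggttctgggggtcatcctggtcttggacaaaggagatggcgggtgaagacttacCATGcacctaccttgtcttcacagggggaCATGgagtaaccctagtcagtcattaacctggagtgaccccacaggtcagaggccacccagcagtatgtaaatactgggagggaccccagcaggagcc
Ercc5, chr1:44147494-44147743, plus strand: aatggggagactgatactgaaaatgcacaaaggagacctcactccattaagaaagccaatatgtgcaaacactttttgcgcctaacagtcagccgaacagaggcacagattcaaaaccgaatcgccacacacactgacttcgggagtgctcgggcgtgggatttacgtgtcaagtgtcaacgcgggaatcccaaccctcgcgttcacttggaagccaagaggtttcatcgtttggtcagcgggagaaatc

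Total deposited counts ranged from 5938519 to 6121007 over the irradiated libraries, and the nonirradiated totals from 5322146 to 6643019. The scaling of these counts is not stated, so the totals do not show sequencing depth. Genes listed above 0 numbered 9311 to 12921 in irradiated and 12566 to 14610 in nonirradiated libraries. The part of this difference in detection in the results below was not tested. All 10 keratinocyte markers were listed above 0 in every library, as the skin label calls for. Their summed level was 3561 to 5376 FPKM in irradiated and 2534 to 3238 FPKM in nonirradiated libraries (fragments per kilobase of transcript and per unit of library size, a scale per length). The summed level of 14 leukocyte markers, of which 13 were matched, was 111 to 146 against 42.7 to 59.99 FPKM. Only 2 of them were above 0 in every library, and Cd8a and Ly6g were among those at 0 throughout. Sebaceous (7 markers, 538 to 648 against 214 to 385 FPKM) and adipocyte markers (7 markers, 1476 to 2343 against 1194 to 1462 FPKM) were also higher. Lower sums were found for hair shaft and inner root sheath genes (11 of 12 matched, 498 to 1108 against 1677 to 2383 FPKM) and genes of dividing cells (8 markers, 52.3 to 141 against 203 to 303 FPKM). The 16 skeletal muscle markers summed to 5451 to 8480 against 2085 to 6648 FPKM, the 8 smooth muscle markers to 220 to 338 against 97.1 to 239 FPKM and the 8 fibroblast markers to 412 to 478 against 309 to 423 FPKM. The 7 endothelial markers summed to 55.0 to 110.3 against 99.5 to 139 FPKM and the 6 melanocyte markers to 17.4 to 218 against 68.1 to 212 FPKM; the groups overlapped for these last 5 lists. Myh7 was the only marker outside the leukocyte list at 0 throughout. In whole skin fewer cells of a type and less RNA per cell cannot be told apart, and the part these markers have in the results below was not tested.

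The clearest signal was Trp53inp1, whose RNA stood about 2.41-fold higher in irradiated skin by mean FPKM and 2.60-fold by mean count. Zmat3 stood 1.94-fold higher on both scales. No irradiated library overlapped a nonirradiated one for either gene. Ercc5 had 2.85-fold more FPKM but 1.87-fold more counts. Gdf15 was listed above 0 only in irradiated libraries, and at low counts there. Xpc and Ddb2 lay at or below their nonirradiated levels.

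In limma on log2(FPKM + 1), 0 of the 10 members passed the adjusted threshold of 0.05, against 0.248% of the 13324 genes tested (0.120% higher and 0.128% lower). All 10 members were among the genes tested, which averaged at least 0.5 FPKM. At an unadjusted p under 0.05, 4 members (Trp53inp1, Zmat3, Ercc5 and Gdf15) were higher and 0 lower, against 5.68% of all genes higher and 7.21% lower. Gdf15 averaged 3.86 FPKM in irradiated and 0 in nonirradiated libraries, so it passed the filter through the irradiated group alone. Its change could only be above 0, and its place in these member counts, the DESeq2 call below included, is no support. Of the 10 members 8 had a log2 change above 0, against 43.9% of all genes, and the median change was 0.49 for the members and -0.11 for all genes. Every irradiated FPKM value lay above every nonirradiated one for 2 members (3.99% of all genes) and below for 0 (4.48%). With edgeR's quasi-likelihood test on the rounded counts 1 of 9 members tested was called, Trp53inp1, and it was higher, against 0.407% of all genes called higher and 0.748% in either direction. At an unadjusted p under 0.05 edgeR had 3 members, against 10.2% of all genes in either direction. DESeq2 called 3 members higher, Trp53inp1, Zmat3 and Gdf15, against 2.40% of all genes. Both edgeR and DESeq2 model counts as numbers of reads. Whether the deposited counts, whose scaling is not stated, meet that model was not tested, so p-values of these 2 tests are uncertain throughout. The members were chosen with results of these libraries known, so these shares describe them and test nothing about the list.

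**Figure D1:**
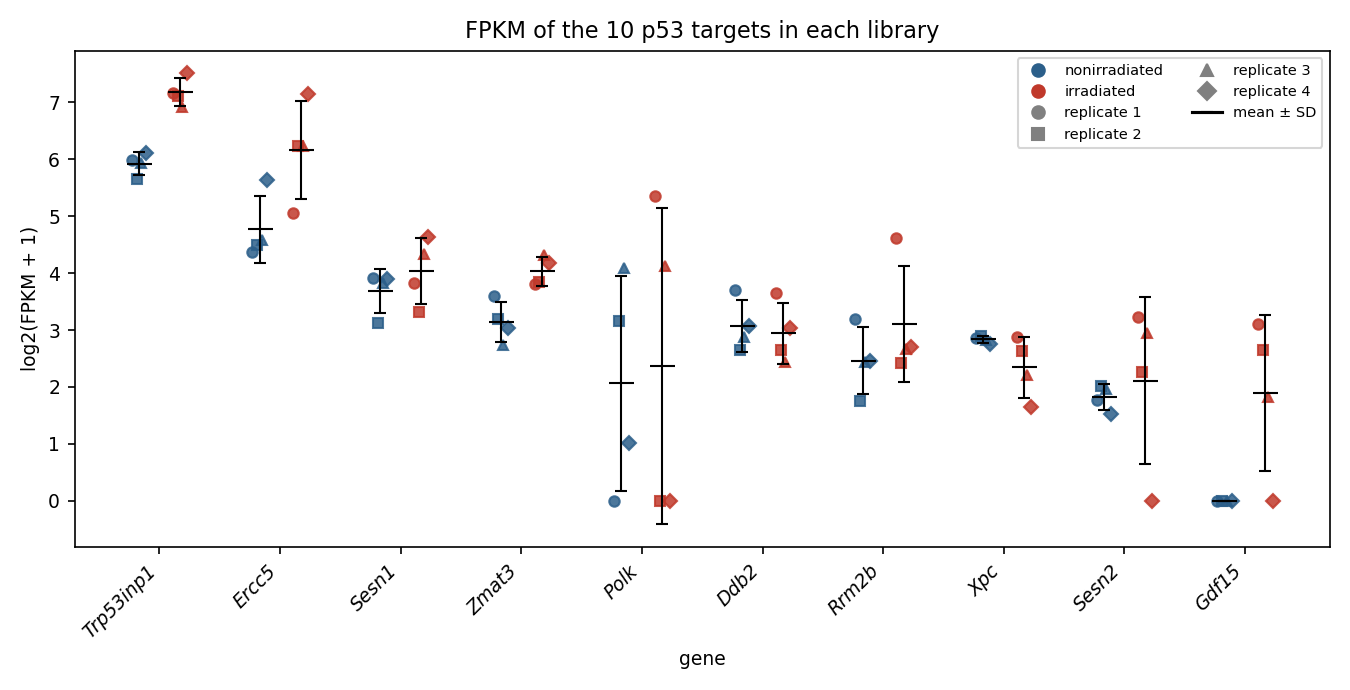
log2(FPKM + 1) of each of the 10 genes (x axis, ordered by mean) in each library (blue nonirradiated, red irradiated, marker shape for the replicate number, black dash and bar mean ± SD, n = 4). Trp53inp1 and Zmat3 are the 2 genes whose groups do not overlap, Polk has values near 0 in both groups, and Gdf15 is at 0 in all 4 nonirradiated libraries.

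Sesn1 (ENSMUSG00000038332, chromosome 10, 41809935 to 41908424, plus strand) was at 13.3, 8.99, 19.2 and 23.9 FPKM in irradiated replicates 1 to 4 and at 14.0, 7.66, 13.2 and 13.8 FPKM in nonirradiated replicates 1 to 4. Only irradiated replicates 3 and 4 exceeded the highest nonirradiated library, and the groups overlapped. The means were 16.3 ± 6.54 and 12.2 ± 3.03 FPKM (SD, n = 4 each), with a log2 change of 0.35 (SE 0.39, limma adjusted p = 0.751). From counts the change was 0.27 (edgeR adjusted p = 0.959). On its own strand the gene overlaps 9930024M15Rik by 2584 bases.

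Sesn2 (ENSMUSG00000028893, chromosome 4, 132492032 to 132510501, minus strand), the second sestrin, was lower in level than Sesn1 in every library. It stood at 8.42, 3.79, 6.69 and 0 FPKM in irradiated replicates 1 to 4, from 243, 109, 192 and 0 counts. Nonirradiated replicates 1 to 4 stood at 2.42, 3.06, 2.92 and 1.89 FPKM. The 3 irradiated libraries that listed the gene lay above all 4 nonirradiated ones, and the fourth was at 0. The log2 change was 0.28 (SE 0.72, limma adjusted p = 0.904). Without irradiated replicate 4 it was 0.99 (limma adjusted p = 0.395), and from counts it was 0.74 (edgeR adjusted p = 0.971). Gm12981 overlaps the gene by 6089 bases on the same strand.

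Trp53inp1 (ENSMUSG00000028211, chromosome 4, 11156431 to 11174379, plus strand) had the highest level of the 10 members. Its irradiated replicates 1 to 4 were at 142, 137, 120.3 and 181 FPKM and its nonirradiated replicates 1 to 4 at 62.6, 49.1, 60.1 and 68.4 FPKM. The lowest irradiated library thus lay well above the highest nonirradiated one. Means were 145 ± 25.7 and 60.1 ± 8.09 FPKM (SD, n = 4 each), with a log2 change of 1.25 (SE 0.22, limma adjusted p = 0.0566). The counts behind them were 6286, 6132, 5233 and 8257 against 2821, 2006, 2198 and 2943. From these counts the gene rose by 1.26 on the log2 scale (edgeR adjusted p = 0.0118). That call ended without nonirradiated replicate 2 (change 1.19, edgeR adjusted p = 0.0713) and without nonirradiated replicate 3 (1.24, edgeR adjusted p = 0.0614).

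Zmat3 (ENSMUSG00000027663, chromosome 3, 32334792 to 32366014, minus strand) was at 12.96, 13.3, 19.0 and 17.1 FPKM in irradiated replicates 1 to 4. Nonirradiated replicates 1 to 4 were at 11.1, 8.18, 5.65 and 7.25 FPKM, all below the irradiated ones. The means of 15.6 ± 2.95 and 8.04 ± 2.27 FPKM (SD, n = 4 each) differed by 0.89 on the log2(FPKM + 1) scale (SE 0.35, limma adjusted p = 0.325). From counts, which ran from 846 to 1239 in irradiated and from 369 to 720.3 in nonirradiated libraries, the difference was 0.87 (edgeR adjusted p = 0.105; DESeq2 adjusted p = 0.00813). The table gives Zmat3 and 4930429B21Rik the same span, so how reads were split between them is uncertain.

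Gdf15 (ENSMUSG00000038508, chromosome 8, 70629393 to 70632456, minus strand) was listed at 7.58, 5.30, 2.54 and 0 FPKM in irradiated replicates 1 to 4 and at 0 in all 4 nonirradiated libraries. The irradiated values came from 81.0, 56.8, 26.9 and 0 counts. The fitted log2 change of 1.895 (SE 0.65, limma adjusted p = 0.250) depends on the pseudocount and is no bound. edgeR kept the gene out by its filter, and DESeq2 called it higher (adjusted p = 0.0255). That call rests on counts of at most 1.56 times the commonest low count of their library, a measure explained below.

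Rrm2b (ENSMUSG00000022292, chromosome 15, 37923952 to 37961318, minus strand) was at 23.7, 4.34, 5.33 and 5.54 FPKM in irradiated replicates 1 to 4. Nonirradiated replicates 1 to 4 were at 8.16, 2.38, 4.39 and 4.52 FPKM. Irradiated replicate 1 alone stood far above the other 7 libraries. Its counts did not stand apart, with 221, 166, 122 and 212 in irradiated and 176, 90.9, 151 and 173 in nonirradiated replicates 1 to 4. The log2 change was 0.64 from FPKM (SE 0.60, limma adjusted p = 0.693) and 0.16 from counts (edgeR adjusted p = 0.989). Without irradiated replicate 1 the FPKM change was 0.13. The pseudogene Gm3362 overlaps Rrm2b by 466 bases on its strand and Gm49085 by 848 bases on the other.

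Polk (ENSMUSG00000021668, chromosome 13, 96480690 to 96542579, minus strand) varied more within groups than between them. Irradiated replicates 1 and 3 were at 39.8 and 16.5 FPKM and replicates 2 and 4 at 0.000117 and 0.000122 FPKM. Nonirradiated replicate 1 was at 0.000121 FPKM as well, and replicates 2 to 4 at 7.92, 16.0 and 1.02 FPKM. The 3 near-zero values came from under 0.01 counts each, so the table lists a fraction of a read there rather than 0. The log2 change of 0.30 (SE 1.34, limma adjusted p = 0.949) turned to -0.69 without irradiated replicate 1. Gm17622, which overlaps Polk by 388 bases on the other strand, was listed at 0 in all 8 libraries.

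The lesion sensor Xpc (ENSMUSG00000030094, chromosome 6, 91489305 to 91515888, minus strand) was at 6.34, 5.22, 3.65 and 2.14 FPKM in irradiated replicates 1 to 4. The nonirradiated libraries were tightly grouped at 6.25, 6.47, 6.09 and 5.78 FPKM. Irradiated replicate 1 lay inside the nonirradiated range and the other 3 below it. By count the groups did not overlap, with 191, 158, 121 and 64.8 in irradiated and 214, 237, 199 and 204 in nonirradiated replicates 1 to 4. Xpc was the only member with all irradiated counts below all nonirradiated ones, as were 5.34% of all genes, and 2 members (Trp53inp1 and Zmat3) had them above, as did 4.24%. For Xpc the nearest counts were 191 in irradiated replicate 1 and 199 in nonirradiated replicate 3. That gap is smaller than the commonest low count of irradiated replicate 1, 74.6, a measure explained below. The log2 change was -0.49 from FPKM (SE 0.47, limma adjusted p = 0.699) and -0.81 from counts (edgeR adjusted p = 0.683).

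Ddb2 (ENSMUSG00000002109, chromosome 2, 91211572 to 91236982, minus strand), whose product hands ultraviolet lesions to the Xpc protein, was at 11.6, 5.31, 4.40 and 7.18 FPKM in irradiated replicates 1 to 4. Nonirradiated replicates 1 to 4 were at 12.1, 5.26, 6.35 and 7.44 FPKM. The ranges nearly coincided, and replicate 1 was the highest in both groups. The log2 change was -0.13 from FPKM (SE 0.46, limma adjusted p = 0.934) and -0.24 from counts (edgeR adjusted p = 0.989). Acp2 overlaps Ddb2 by 2527 bases on the opposite strand, and since the use of strand in counting is not given, reads of the 2 genes may be mixed.

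Ercc5 (ENSMUSG00000026048, chromosome 1, 44147744 to 44181260, plus strand) was at 32.1, 74.4, 73.9 and 141 FPKM in irradiated replicates 1 to 4 and at 19.6, 21.5, 22.9 and 48.7 FPKM in nonirradiated replicates 1 to 4. Irradiated replicate 1 lay below nonirradiated replicate 4, and the other 3 irradiated libraries lay above all nonirradiated ones. The means were 80.2 ± 44.8 and 28.2 ± 13.7 FPKM (SD, n = 4 each), a log2 change of 1.40 (SE 0.44, limma adjusted p = 0.214). The counts were 506, 1065, 930.2 and 846 against 331, 435, 416 and 611, a log2 change of 0.76 (edgeR adjusted p = 0.374). By count irradiated replicate 4 lay below irradiated replicates 2 and 3, although by FPKM it was the highest.

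**Figure D2:**
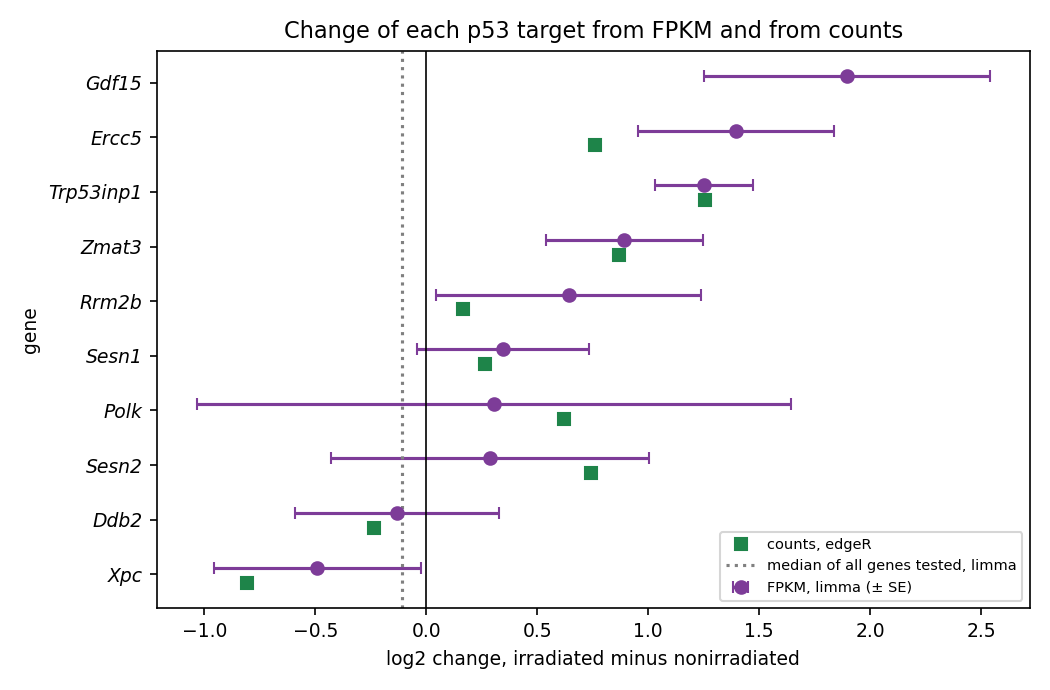
log2 change of each gene, irradiated minus nonirradiated (x axis), from FPKM with limma (circles, bars ± SE) and from rounded counts with edgeR (squares, no error given by the test). Trp53inp1 and Zmat3 have nearly the same change on both scales, Ercc5 has 1.40 and 0.76, and the dotted line marks the median of all genes at -0.11.

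The number of counts behind 1 FPKM should be steady between libraries if the same transcript length was used for the gene, and it was so for some members. For Zmat3 it ran from 65.1 to 65.3, for Sesn2 from 28.7 to 28.9 and for Gdf15 from 10.6 to 10.7. For Trp53inp1 the range was 36.6 to 45.6. For Rrm2b it ran from 9.34 in irradiated replicate 1 to 38.3 in irradiated replicate 2, a ratio of 4.10, so that 221 counts gave 23.7 FPKM in the first and 166 counts gave 4.34 FPKM in the second. For Ercc5 it ran from 6.02 in irradiated replicate 4 to 20.3 in nonirradiated replicate 2, a ratio of 3.36. Polk had a ratio of 1.83 over the 5 libraries above 0.01 FPKM. Of the 7 members with more than 20 counts throughout, 2 (Rrm2b and Ercc5) had a ratio over 1.5, against 47.6% of 6747 such genes. GENCODE M21 has 5 coding transcripts of Rrm2b, from 357 to 4561 bases, and 1 of Ercc5, of 3907 bases, among 7 transcripts in all.

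**Figure D3:**
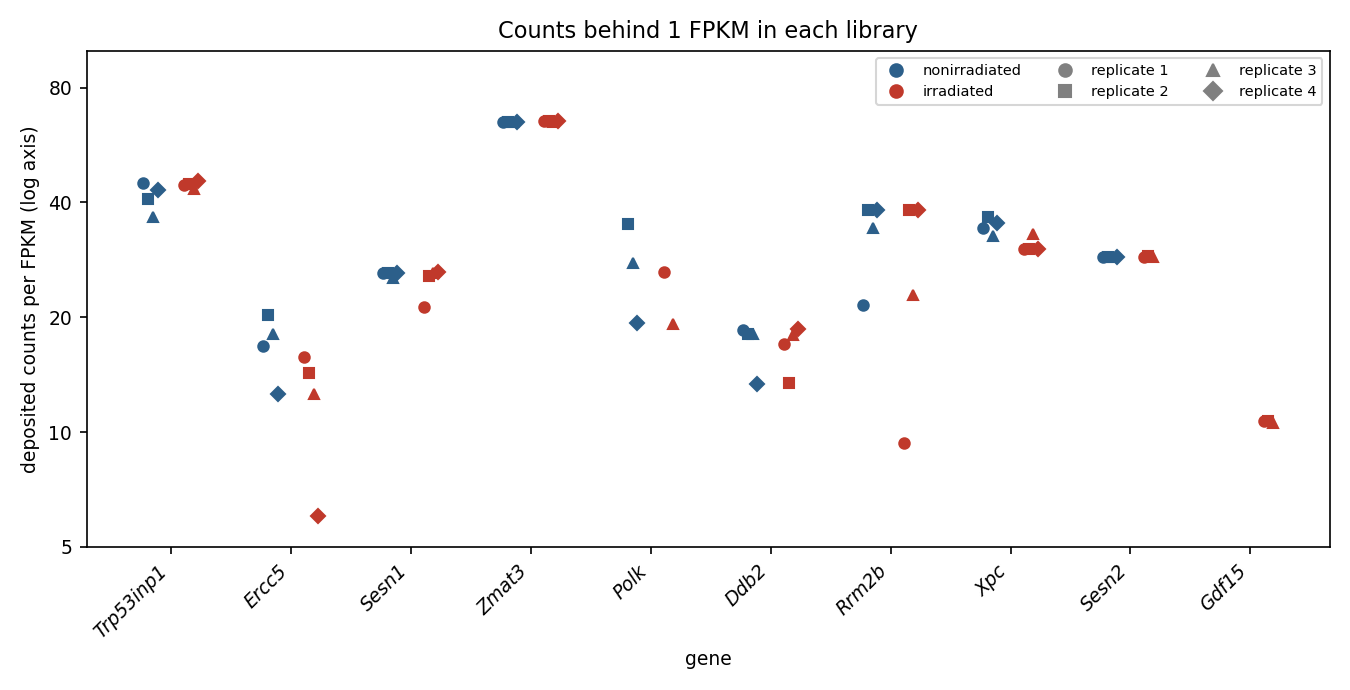
Deposited counts divided by deposited FPKM (y axis, log scale) for each gene and library above 0.01 FPKM, with colour for the group and shape for the replicate. Zmat3 and Sesn2 lie in a narrow band, and irradiated replicate 1 for Rrm2b (9.34) and irradiated replicate 4 for Ercc5 (6.02) lie lowest.

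Low counts pile up in each library at 1 or more values, and the value of the highest peak is called here the commonest low count. It was 74.6, 36.5, 17.9 and 80.5 in irradiated replicates 1 to 4 and 17.2, 4.36, 4.08 and 15.3 in nonirradiated replicates 1 to 4. Irradiated replicate 4 had 3 such peaks, and irradiated replicate 2 and nonirradiated replicates 1 and 4 had 2 each. In those libraries the commonest low count is a choice among peaks. If that value stands for a single captured fragment, which is an assumption, a member is known only in multiples of it, called units, and a level under 3 units may be missed in a library. Units show how finely a library resolves a gene and are not compared between groups as levels. Trp53inp1 had 84.3 to 292 units in irradiated libraries and 164 to 539 in nonirradiated ones. Zmat3 had 11.3 to 69.2 and 30.8 to 122 units. Ddb2 was under 3 units in 3 irradiated libraries, and Sesn2, Rrm2b, Polk and Xpc in 2 each; of the nonirradiated libraries only 2, for Polk, were under it outside Gdf15. Gdf15 had at most 1.56 units in any library. In irradiated replicate 4 the floor of 3 units, taken from the highest of its 3 peaks, was 241 counts. On that floor the 0 of Sesn2 and of Gdf15 there does not separate that library from the other irradiated ones. Intervals and floors of this kind cover counting error only. With edgeR on counts divided by the commonest low count, a setting chosen after seeing the data, Trp53inp1 rose by 1.30 (adjusted p = 8.5e-05), Zmat3 by 0.97 (adjusted p = 0.0125) and Ercc5 by 0.89 (adjusted p = 0.0355). These were 3 of the 7 members tested there, and 5.03% of the 5842 genes tested were called higher and 8.76% in either direction.

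**Figure D4:**
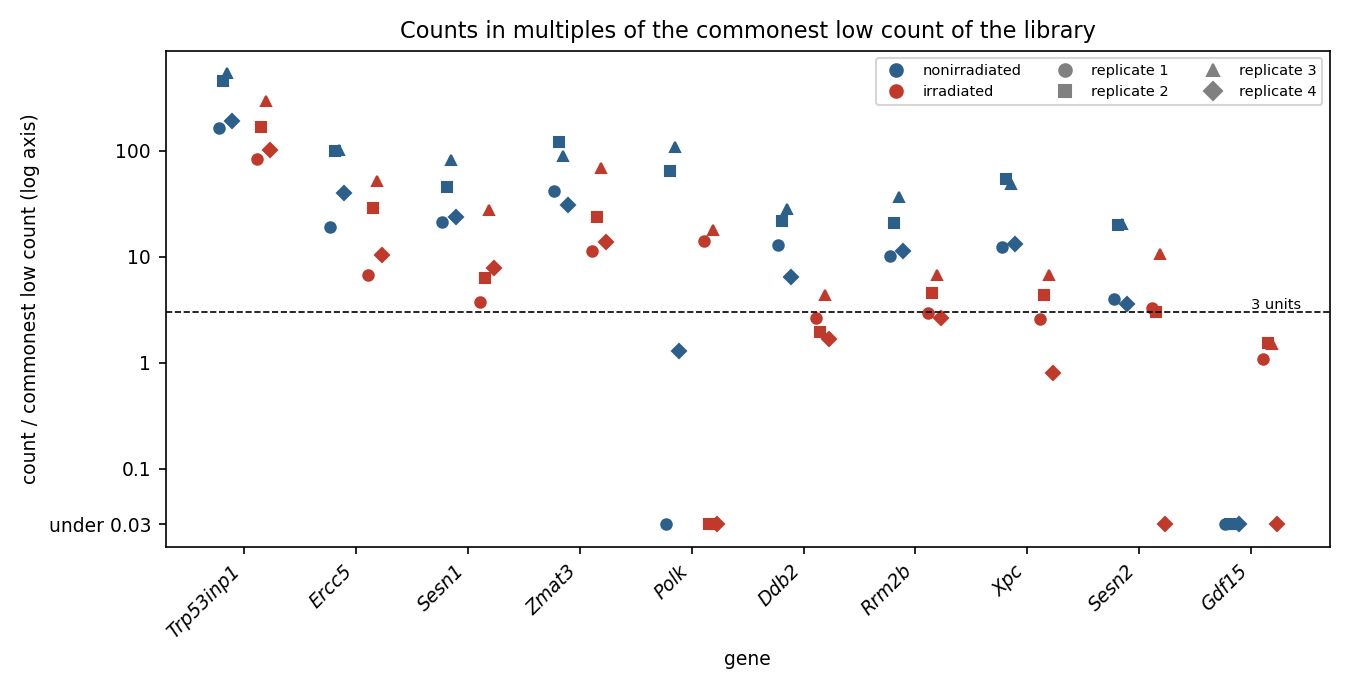
Counts of each gene divided by the commonest low count of the library (y axis, log scale, values under 0.03 drawn at the bottom), with colour for the group and shape for the replicate and the dashed line at 3 units. Trp53inp1 and Zmat3 lie above the line in all 8 libraries, and Gdf15 lies below it in all of them.

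Ratios between members within a library do not depend on the scaling of the library. For the 7 members above 0.01 FPKM throughout, 21 pairs were compared on the log2 scale with exact two-sided permutation tests. Trp53inp1 exceeded Xpc by 5.16 ± 0.86 in the irradiated group and by 3.28 ± 0.26 in the other (SD, n = 4 each), with no overlap (exact p = 0.0286, adjusted p = 0.15). Trp53inp1 over Ddb2 (4.43 ± 0.55 against 3.01 ± 0.42), Zmat3 over Xpc (1.94 ± 0.91 against 0.34 ± 0.38) and Rrm2b over Ddb2 (0.16 ± 0.65 against -0.74 ± 0.28) did not overlap either, with the same exact p, the smallest that 4 against 4 libraries allow. On ratios of counts, computed after seeing the data, the first 3 of these pairs still did not overlap, but Rrm2b over Ddb2 did (exact p = 0.2). Groups did not overlap for 4 of the 21 pairs on FPKM and for 6 on counts. The share over all pairs of genes was not computed, and the pairs reuse the same 7 members. These numbers therefore cannot be read as an excess. The count pairs added Sesn1 with Trp53inp1, Trp53inp1 with Rrm2b, and Rrm2b with Xpc. No pair passed after adjustment over the 21 on either scale. With a smallest possible exact p of 0.0286 a pass needs many pairs at that value, so this outcome was nearly fixed in advance.

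Other genes of these pathways were followed in lists. Of 36 other p53 targets, 34 were tested and limma called 1, which was higher, against 0.120% of all genes called higher. At an unadjusted p under 0.05, 15 were higher and 0 lower, against 5.68% and 7.21% of all genes. The median log2 change was 0.39 against -0.11 over all genes. The gene called by limma was Ccng1, which encodes cyclin G1, at 208 ± 16.2 against 62.0 ± 10.9 FPKM (SD, n = 4 each), a rise of 1.75 (SE 0.21, limma adjusted p = 0.00870). Its call ended without nonirradiated replicate 2 (limma adjusted p = 0.0538), without nonirradiated replicate 3 (0.0569), without irradiated replicates 1 and 4 together (0.0720) and without trend or robust moderation (0.0662). edgeR called 2 genes of the list higher, Ccng1 and Eda2r, against 0.407% of all genes. DESeq2 called 8 higher, against 2.40% of all genes, and neither test called any lower. Eda2r, which encodes a receptor of the tumour necrosis factor receptor family and is named here because edgeR called it, was at 41.8 ± 18.6 against 6.22 ± 3.19 FPKM (SD, n = 4 each), a log2 change of 2.56 (limma adjusted p = 0.0566) and of 2.55 from counts (edgeR adjusted p = 0.00468). Cdkn1a, the cell cycle inhibitor p21, ran from 65.2 to 96.8 against 23.8 to 60.5 FPKM (log2 change 1.14, limma adjusted p = 0.157). From counts its change was 1.04 (edgeR adjusted p = 0.0899, DESeq2 adjusted p = 0.00672). Mdm2, the ubiquitin ligase that degrades p53, ran from 88.5 to 130.1 against 39.6 to 63.4 FPKM (log2 change 1.03, limma adjusted p = 0.0978). From counts the Mdm2 change was 0.73 (edgeR adjusted p = 0.0935, DESeq2 adjusted p = 0.00172). The counts behind 1 FPKM of Mdm2 ran from 10.5 to 17.9 over the libraries. Trp53 itself was at 17.6, 0.775, 15.1 and 0 FPKM in irradiated replicates 1 to 4 and between 11.3 and 18.6 FPKM in nonirradiated libraries. Its log2 change was -1.84 from FPKM (limma adjusted p = 0.425) and -0.46 from counts (edgeR adjusted p = 0.989).

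In the lists that follow limma and edgeR called no gene in either direction after adjustment. DESeq2 called Cul4b, a ubiquitin ligase scaffold of excision repair, higher and Chek2 lower, against 4.96% of all genes in either direction. Of all genes tested with limma 43.9% had a change above 0. At an unadjusted p under 0.05, 5.68% were higher and 7.21% lower, and the list counts below are read beside these shares. Nucleotide excision repair without the members had 30 tested genes, 10 above and 20 below 0, with a median of -0.24; 3 were higher and 2 lower at an unadjusted p under 0.05. Lig3, a DNA ligase, had 69.6 ± 32.5 against 26.3 ± 8.73 FPKM (SD, n = 4 each), but its change was 1.32 from FPKM and 0.24 from counts. Gtf2h3, a subunit of the helicase complex TFIIH, was at -2.26 (limma adjusted p = 0.192), with 2 irradiated libraries at 0. Without irradiated replicates 1 and 4 its change was -1.33. Nucleotide supply had 14 tested genes with a median of -0.64, 3 above and 11 below 0, and 1 higher and 2 lower at an unadjusted p under 0.05. Cmpk1, which phosphorylates pyrimidine nucleotides, had 87.2 ± 8.70 against 39.97 ± 14.98 FPKM (SD, n = 4 each), a change of 1.17 (limma adjusted p = 0.103) that was 0.71 from counts. Tyms, thymidylate synthase, was at -2.28 (limma adjusted p = 0.210), with 1 irradiated library at 0. Without irradiated replicates 1 and 4 its change was -1.19. Translesion synthesis had 12 tested genes with a median of -0.22, 5 above and 7 below 0, and 0 higher and 1 lower at an unadjusted p under 0.05. Polh, another damage-tolerant polymerase, was at 1.12 ± 1.45 against 4.96 ± 1.97 FPKM (SD, n = 4 each), a change of -1.69. It had 2 irradiated libraries at 0, and its change was -0.87 without irradiated replicates 1 and 4. Pold1, a subunit of polymerase delta, was at -1.60 from FPKM and -0.086 from counts. It also had 2 irradiated libraries at 0, and its FPKM change stayed at -1.62 without irradiated replicates 1 and 4.

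The list of sestrin partners and mTORC1 restraint had 20 tested genes with a median of -0.19, 7 above and 13 below 0. At an unadjusted p under 0.05, 1 was higher and 1 lower. The list mixes genes that restrain mTORC1 with its parts Mtor and Rptor and with activators such as Rheb and Rragd. Its median and signs therefore do not describe restraint. Rragd, a GTPase that recruits mTORC1 to lysosomes, was at 1.31 (limma adjusted p = 0.333) and Nprl3, a subunit of the GATOR1 complex, at -2.64 (0.222), with 2 libraries at 0 and a change of -1.31 from counts (edgeR adjusted p = 0.936). Autophagy had 20 tested genes with a median of 0.22, 14 above and 6 below 0, and 0 at an unadjusted p under 0.05. Atg5 was at 0.96 and Atg12, the ubiquitin-like protein joined to it, at 0.64. Antioxidant genes had 11 tested with a median of 0.36, 9 above and 2 below 0, and 0 at an unadjusted p under 0.05. Catalase (Cat) was at 76.8 ± 30.4 against 45.7 ± 15.3 FPKM (SD, n = 4 each), a change of 0.70, and Keap1, which restrains the antioxidant factor encoded by Nfe2l2, at 0.82. The integrated stress response, which can also switch on Sesn2 and Gdf15, had 16 tested genes with a median of 0.012, 8 above and 8 below 0, and 2 higher and 0 lower at an unadjusted p under 0.05. Psat1, an enzyme of serine synthesis, was at 47.1 ± 16.8 against 20.7 ± 6.94 FPKM (SD, n = 4 each), a change of 1.14 that was 0.49 from counts, and Vldlr, a lipoprotein receptor, at 0.96. The p53 family and its upstream kinases had 12 tested genes with a median of -0.18, 5 above and 7 below 0, and 1 higher and 1 lower at an unadjusted p under 0.05. Trp73, a p53 relative, ran from 1.24 to 14.0 against 0 to 1.02 FPKM (change 2.01, limma adjusted p = 0.210), and Chek2, a checkpoint kinase, was listed at 0 in all irradiated libraries and at 1.70 to 6.00 FPKM in nonirradiated ones (limma adjusted p = 0.103, edgeR 0.0974, DESeq2 1.5e-05, called lower by DESeq2 alone). The floor of 3 units was 53.7 to 241 counts in irradiated and 12.2 to 51.7 counts in nonirradiated libraries. Its part in the zeros of Chek2 and of the other genes named in these lists was not tested.

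**Figure D5:**
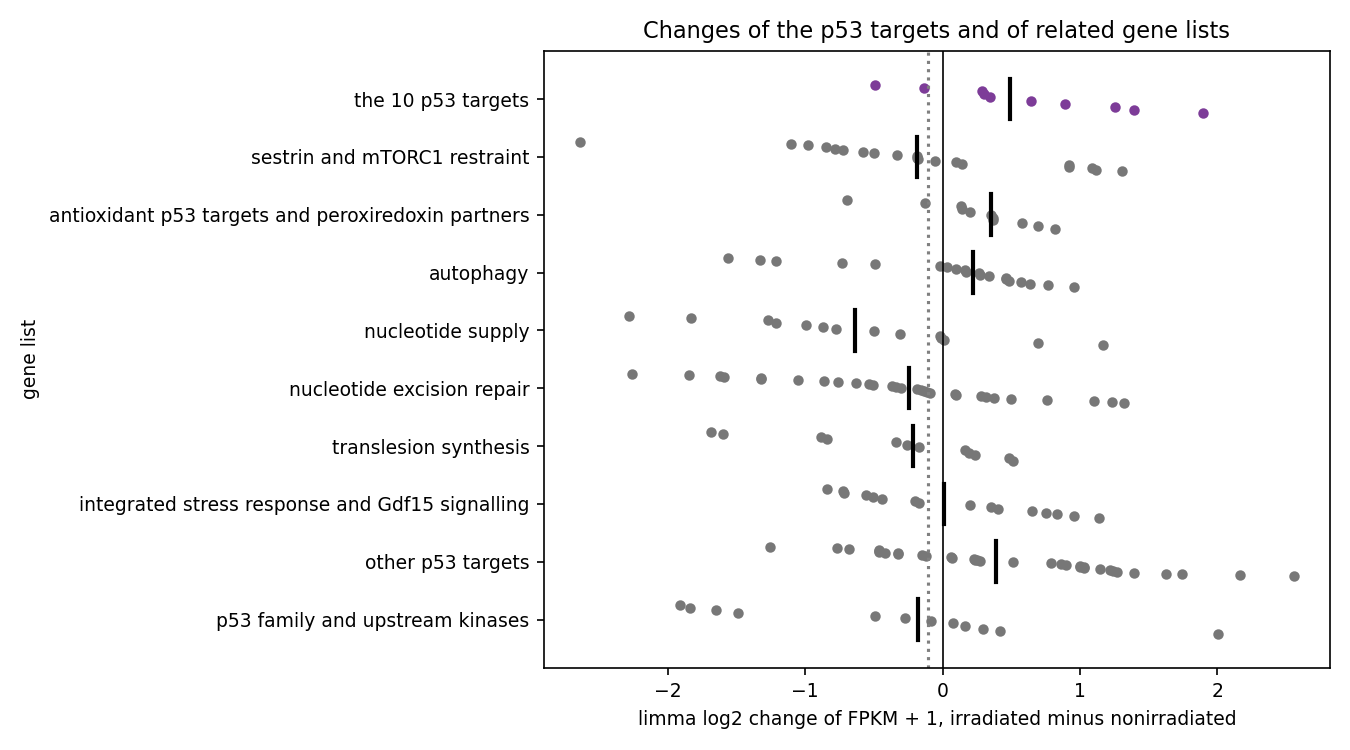
limma log2 change of each tested gene (points, x axis) in the 10 p53 targets and in 9 related lists (y axis), with the median of each as a black bar and the median of all genes as a dotted line at -0.11. The medians of the 10 targets (0.49) and of the other p53 targets (0.39) lie right of 0, and that of nucleotide supply (-0.64) lies farthest left.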

How the data were processed

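The deposited table has 22565 rows, 1 of them empty, and lists protein-coding genes of mouse skin. Per the file headers it gives FPKM, the authors' own normalisation, next to estimated counts that are partly fractional and whose scaling is not stated. cutadapt 1.9.3, HISAT2 2.0.4, Cufflinks, Cuffdiff and mm10 are named, without roles, by the submitters' processing notes. Not given in the sources used here are the annotation and whether counting used strand. Coordinates are from GENCODE M21 on the same assembly, which held 96.8% of the identifiers.

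limma 3.58.1 (R 4.3.3, trend and robust moderation) was fitted to log2(FPKM + 1), irradiated minus nonirradiated, for genes averaging 0.5 FPKM or more, with Benjamini-Hochberg adjustment over all of them; small values are understated on this scale. Estimated counts, as deposited by the authors, were rounded for edgeR 4.0.16 (TMM) and DESeq2 1.42.0. The fits were tested on simulated data with normal log values and negative binomial counts. The simulation did not imitate the scaled counts or the low-count floor of these libraries. The commonest low count is the mode, per count, of a density between 3.5 and 300 counts smoothed by a Gaussian of width 0.15 in natural log units. The members, lists and tests were chosen with earlier results of these data known. The named genes are the members, Cdkn1a, Mdm2, Ccng1, Trp53 and, of each list, the called genes or else the 2 with the smallest p. Alternatives changed the pseudocount, filter, scaling, moderation, test, block and libraries.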

Additional observations from a re-analysis of the deposited data

Results flagged for a closer look

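Of 48 sets of 4 values examined for the members and 4 reference genes, 5 had a library far from the other 3 of its group, measured by its gap to the nearest value over the whole range. For 4 independent values from a normal distribution, chance alone would single out about 1 in 20 such sets. Whether these values meet that was not tested, and FPKM and counts of the same gene are not independent sets. Rrm2b in irradiated replicate 1 stood at 23.7 FPKM with the next at 5.54, while its count of 221 had a neighbour at 212. Ercc5 in nonirradiated replicate 4 stood at 48.7 FPKM with the next at 22.9. Sesn1 in nonirradiated replicate 2 was the lowest at 7.66 FPKM, with the next at 13.2. Ddb2 in nonirradiated replicate 1 had the highest count at 223, with the next at 115. Trp53 in nonirradiated replicate 4 was the lowest at 11.3 FPKM, with the next at 17.5.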

How the results depend on the processing

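The 33 genes called by limma became 16 with a replicate block, 92 with edgeR (TMM), 105 with edgeR and median ratio size factors (65 higher, 40 lower), 126 with edgeR and no filter, 707 with DESeq2, 9 without irradiated replicates 1 and 4, 107 with edgeR without those libraries, and 512 with edgeR on counts divided by the commonest low count. Leaving out 1 library gave 4 to 76 with limma and 18 to 156 with edgeR (56 and 70 without irradiated replicates 2 and 3, 124 and 19 without nonirradiated replicates 1 and 3). The edgeR fits with libraries left out or counts divided were chosen after seeing the data. The count of members called, 0 in limma, was 1 in each edgeR fit on counts with all libraries and without irradiated replicates 1 and 4, 0 to 1 with 1 library left out, and 3 with DESeq2 and with edgeR on divided counts. It stayed 0 in the other limma settings, the replicate block included (Trp53inp1 adjusted p = 0.0932). Equal replicate numbers did not deviate together: correlations across genes between irradiated and nonirradiated libraries of the same number were 0.020, -0.013, 0.012 and 0.090, and 1 of 4 was the best match. The change of Polk reversed to -0.28 with a pseudocount of 0.1, to -0.0013 without irradiated replicates 1 and 4, to -0.41 there with edgeR, to between -0.69 and -0.045 with limma without irradiated replicate 1 or 3 or nonirradiated replicate 1 or 4 (-0.28 and -0.38 for the middle values), (the highest limma value with 1 library left out was 1.09, without irradiated replicate 2), and to -0.98 with edgeR without irradiated replicate 1. Sesn2 reversed to -0.27 with a pseudocount of 0.1 and to -0.091 without irradiated replicate 1 (the highest limma value with 1 library left out was 0.99, without irradiated replicate 4). Ddb2 reversed to 0.037 without irradiated replicate 3 and to 0.076 without nonirradiated replicate 1 (the lowest limma value with 1 library left out was -0.37, without irradiated replicate 1). With edgeR, Rrm2b reversed to -0.13 without irradiated replicates 1 and 4, Sesn1 to -0.0028 without irradiated replicate 4, Lig3 to -0.030 without irradiated replicate 1 and Trp53 to 0.14 without nonirradiated replicate 2. Pold1 reversed with edgeR to 0.32, 0.30 and 0.28 without irradiated replicate 1, irradiated replicate 3 and nonirradiated replicate 1. Trp53inp1 (0.95 to 1.36), Zmat3 (0.71 to 1.04) and Ercc5 (0.58 to 1.77) stayed above 0 and Xpc (-1.01 to -0.26) below 0 in all 31 fits. The cause of these shifts was not tested.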

Other observations

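Among 8322 genes averaging at least 5 FPKM, the 2 with the profile nearest to each member over the 8 libraries were sought by the root mean square difference of centred log2(FPKM + 1) values. As they were picked for likeness over these libraries, their differences between groups and p-values follow from the choice and are no separate evidence. Nearest to Trp53inp1, whose own spread by that measure was 0.65, were Lpgat1 at 0.14, an acyltransferase of phospholipids, and Tm9sf3 at 0.16. Lpgat1 had means of 56.9 ± 11.9 and 24.4 ± 4.66 FPKM in irradiated and nonirradiated skin (limma adjusted p = 0.0929; SD, n = 4 each). Nearest to Zmat3, with a spread of 0.52, were Cav2 at 0.12, a caveolin, and Mcl1 at 0.18, a survival protein of the Bcl2 family. Mcl1 had means of 115.6 ± 10.9 and 70.4 ± 11.9 FPKM (limma adjusted p = 0.188; SD, n = 4 each). Nearest to Ercc5, with a spread of 0.94, was Rnf138 at 0.26, a ubiquitin ligase, and Etfb followed at 0.31. For Polk, with a spread of 2.06, the nearest gene, Mettl22, was still 0.98 away. The nearest genes were Ifi205 (0.13) and Plk1s1 (0.18) for Sesn1, Taf1 (0.18) and H2afy (0.19) for Xpc, Ttc13 (0.12) and Dctn2 (0.16) for Ddb2, and Atp5h (0.27) and Klhl8 (0.28) for Rrm2b. The second for Polk was Srd5a3 at 1.05.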
